A study of Mus musculus with 32 samples.

Results

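Adenylyl cyclases and the subunits of protein kinase A (PKA) were followed in the frontal cortex (FCtx) of ethanol-treated mice and controls. The set was the 10 genes Adcy1, Adcy2, Adcy3, Adcy5, Adcy8, Adcy9, Prkaca, Prkacb, Prkar1b and Prkar2b, taken by symbol, and every probe that carried one of these symbols was used. Adcy3 had no probe. The remaining 9 genes, of 18138 gene symbols in the data, had 10 probes of 25697, and 8 probes of 7 genes were detected on enough arrays to be tested. The mice were female F1 hybrids, C57BL/6J x FVB/NJ by the labels and of both cross directions by the study's methods, 20 of which could choose between water and 20% ethanol in daily sessions in the dark over 20 days and 12 of which were matched controls. No genotype was altered, and the protocol leaves the dose to each mouse, since drinking was voluntary. One Illumina MouseRef-8 BeadChip array was hybridized per mouse, on 4 chips of 8 arrays. Ethanol-treated mice filled chips 1 and 2, with 8 on each, and controls filled chip 4. On chip 3, the odd array positions (A, C, E, G) carried 4 ethanol-treated mice and the even ones (B, D, F, H) carried 4 controls, so that treatment and position cannot be told apart there, and treatment and chip cannot be told apart on the other chips.

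Adenylyl cyclases are membrane enzymes that make cyclic AMP (cAMP) from ATP when G proteins signal from receptors at the cell surface. Cyclic AMP binds the regulatory subunits of PKA and frees the catalytic subunits, which phosphorylate ion channels, receptors and the transcription factor CREB. In cortical neurons this route is known for linking receptor and calcium signals to synaptic plasticity, and it has long been studied as a target of ethanol.

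Each probe is a 50-base sequence read by many beads, and the sequences of 2 probes are given, one with a signal well above background and one without. The Adcy8 probe, from chromosome 15 and starting at base 4827 of its transcript, gave the largest difference between treatments over all arrays among the tested probes of the set, although not between chips or with position as a covariate. The Prkar2b probe, from chromosome 12 and starting at base 604 of its transcript, was detected on 1 of 32 arrays. No base is set apart by capitals.
Adcy8: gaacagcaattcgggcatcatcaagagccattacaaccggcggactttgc
Prkar2b: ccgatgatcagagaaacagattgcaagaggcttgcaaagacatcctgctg

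The arrays were close to each other, with correlations of normalized values between arrays from 0.973 to 0.994. Between 9480 and 11544 probes were detected per array at a detection p-value below 0.01, and the array of control mouse C66 on chip 4 gave the lowest number. Of 9 genes listed as markers of cortical neurons, 5 were tested, and Slc17a7, Tbr1, Cux2 and Fezf2 were detected on all 32 arrays. Of 12 olfactory bulb markers 6 were tested, while Omp and Uncx were detected on 0 arrays. In bulk tissue such as this, fewer cells of a type and less RNA per cell cannot be told apart. Values are given on a log2 scale after a variance-stabilizing transform and quantile normalization, and levels are compared only within a probe. An adjusted p is the false discovery rate (FDR) from limma over 10187 tested probes, and a probe counts as called below an FDR of 1%.

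None of the 8 tested probes of the set was called between 20 ethanol-treated mice and 12 controls, where 8.19% of all tested probes were called. At an FDR below 10%, 3 of 8 passed, against 25.5% of all tested probes. These were Prkaca (probe ILMN_2833376) and Adcy8, which were higher in ethanol-treated mice, and Adcy9, which was lower. Under median scaling only ILMN_2833376 still passed (adjusted p = 0.0611, limma), as did 1249 of all tested probes. Adcy8 then had an adjusted p of 0.102 and Adcy9 a difference of -0.06 (adjusted p = 0.620, limma). With no detection filter 1 member probe passed, against 2429 of 25697 probes. Of the 8, 1 passed an FDR of 10% with chip as a fixed block, 0 with chip as a random block and 0 with chip and position as terms. The 1 that passed was none of those named above but the other Prkaca probe, ILMN_2833378, which was lower in ethanol-treated mice (adjusted p = 0.0872, limma). Of all 10187 tested probes, 636, 990 and 7 passed in these settings. At an unadjusted p below 0.05, 4 of 8 passed, against 31.9% of all tested probes. The median difference over the 8 probes was 0.09, against -0.0037 over all tested probes, and 6 of 8 were higher in ethanol-treated mice. Under median scaling, which turned the sign of Prkaca probe ILMN_2833378, 7 of 8 were higher, while the median over all tested probes moved to 0.05. The share of higher probes among all tested probes was not computed. The values of the 2 groups overlapped for all 8, and how many of all tested probes do so over all arrays was not computed. These differences stand beside the errors of measurement. The standard error over beads had a median on the log2 scale from 0.057 for Prkacb to 0.119 for Adcy1, and the SD between ethanol-treated mice ran from 0.10 to 0.17, against a median of 0.13 over all tested probes.

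**Figure D1:**
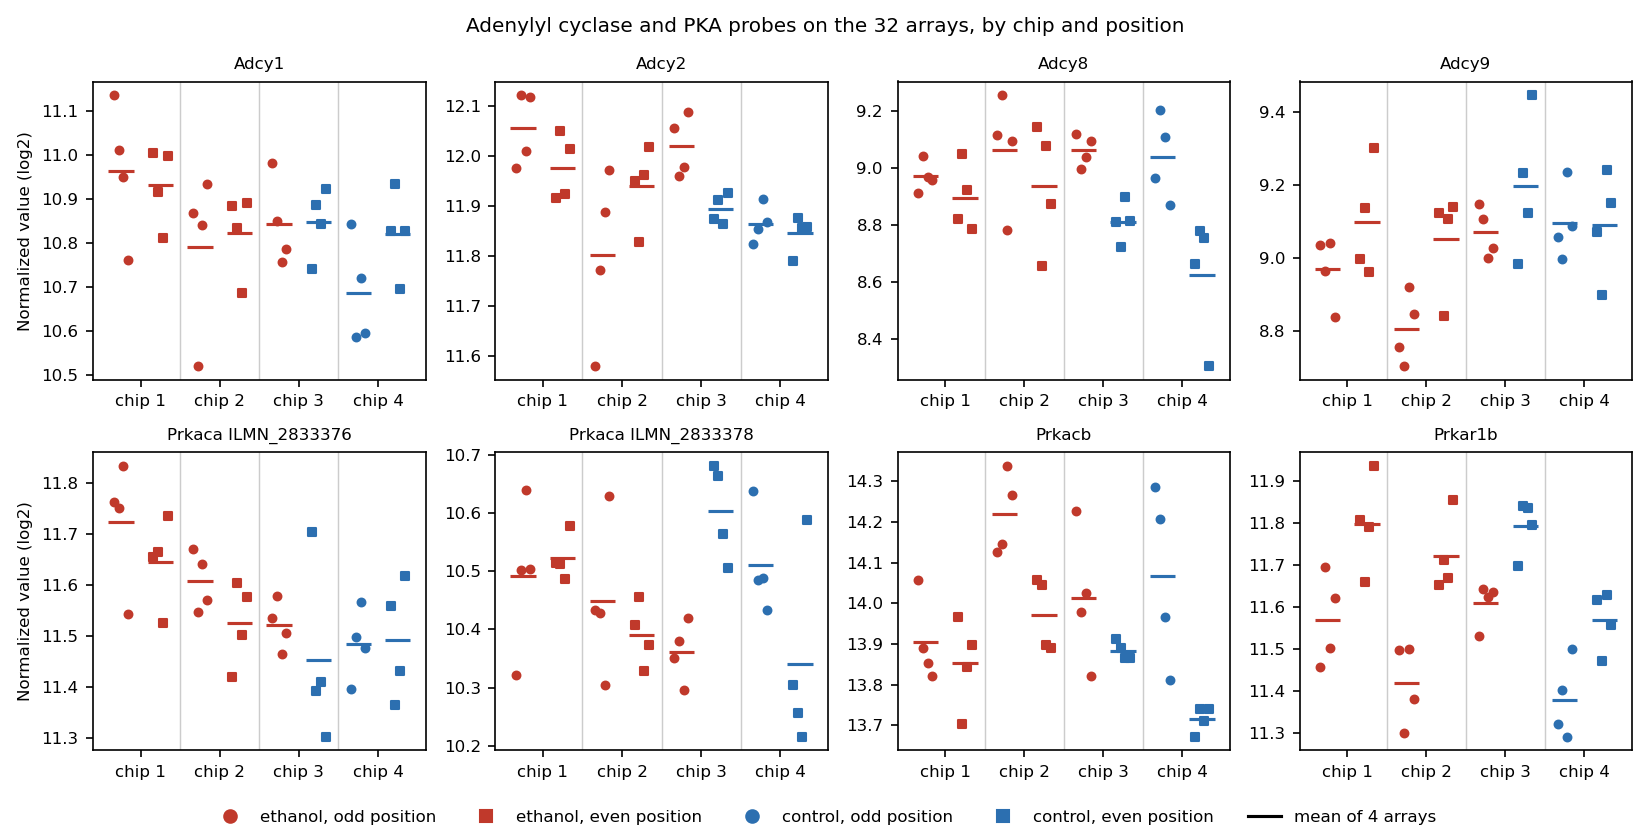
Normalized values (log2, vertical axes, each with its own range that does not start at 0) of the 8 tested probes on the 32 arrays, by chip, with odd positions as circles, even positions as squares and bars for the mean of 4 arrays. Ethanol-treated mice (red) and controls (blue) overlap in every panel, and the mean of Prkar1b is lower at odd than at even positions on every chip.

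Adcy1 and Adcy8 are the cyclases that calcium and calmodulin stimulate, so that they couple calcium entry to cAMP. Adcy1 lay between 10.52 and 11.14 (median 10.88) in ethanol-treated mice and between 10.59 and 10.93 (median 10.83) in controls. The lowest and the highest value were both from ethanol-treated mice, and the difference of 0.09 (SE 0.05) had an adjusted p of 0.205 by limma. On chip 3, the ethanol-treated mice had values of 10.98, 10.85, 10.76 and 10.79 and the controls 10.74, 10.89, 10.84 and 10.92, a difference of -0.0047 (SE 0.07). The Adcy1 values of the treatments were thus mixed on the chip that held both. Between chips 1 and 2 and chip 4 the difference was 0.12 (SE 0.06, adjusted p = 0.124, limma), and chip 1 (mean 10.95 ± 0.12, SD, n = 8) and chip 2 (10.81 ± 0.14, SD, n = 8), both of ethanol-treated mice, lay as far from each other.

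Adcy8 lay between 8.65 and 9.25 (median 9.02) in ethanol-treated mice and between 8.30 and 9.20 (median 8.81) in controls. The value of 17 of 20 ethanol-treated mice was above the median of the controls, and the lowest value of all came from mouse C66. The difference was 0.16 (SE 0.06), or 1.12-fold, with an adjusted p of 0.0636 by limma. Without the array of C66 it was 0.11 (adjusted p = 0.166, limma). On chip 3, Adcy8 was 9.12, 9.0, 9.04 and 9.09 in ethanol-treated mice and 8.81, 8.72, 8.90 and 8.81 in controls. The groups did not overlap, and the difference was 0.25 (SE 0.07, adjusted p = 0.0240, limma).

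Adcy8 also differed by position where treatment did not vary. Over chips 1, 2 and 4, with chip as a term, odd positions were higher than even by 0.20 (SE 0.07, adjusted p = 0.0423, limma). On chip 4, where all mice were controls, odd positions ran from 8.87 to 9.20 and even positions from 8.30 to 8.78. Ethanol-treated mice held 12 odd and 8 even positions and controls 4 odd and 8 even. At odd positions alone the difference between treatments was -0.0052 and at even positions alone 0.20, with adjusted p of 0.973 and 0.166 by limma, and with chip and position both as terms it was 0.05 (adjusted p = 0.943, limma).

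Markers of the olfactory bulb, which adjoins the FCtx, moved with Adcy8. The marker score is the mean over the 6 tested genes (Doc2g, Pcdh21, S100a5, Sp8, Nmb and Th) of their values, centred and scaled over arrays. With both measures centred within chip and treatment, Adcy8 correlated with this score over 32 arrays at Pearson's r = 0.789 and Spearman's rho = 0.714, with permutation p of 1e-05 (the smallest that 100000 resamples can give) and 0.00015. Adjusted over the 72 relations of 8 probes and 9 marker lists, these were 0.00072 and 0.0108, and no other relation passed 0.05 after adjustment. The 2 arrays farthest from the median score were those of A29 and C59, without which r was 0.728. Within chips 1, 2 and 4, r was 0.411, 0.911 and 0.894, and centring within position as well gave 0.719. The relation was thus weakest on chip 1, and chip 3 held 4 arrays of each treatment, too few for a value of its own.

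The score itself ran from -1.52 to 1.83 (median 0.13) in ethanol-treated mice and from -1.46 to 1.74 (median -0.26) in controls. On chip 3 it ran from -0.23 to 0.70 in ethanol-treated mice and from -1.19 to -0.17 in controls. Over chips 1, 2 and 4 its median was 0.28 at odd positions and -0.48 at even positions. None of the 6 markers passed an FDR of 10% between treatments. Eomes and Tbx21, transcription factors of the bulb's projection neurons, were detected on 8 and 1 arrays. The part of bulb tissue in the Adcy8 difference was not tested. The genes whose values followed Adcy8 most closely over the 32 arrays, centred within chip and treatment, were Rcan3 (r = 0.884), Drctnnb1a (r = 0.837) and Gjd2 (r = 0.823).

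Adcy2, a cyclase that calcium does not stimulate and that G protein beta-gamma subunits enhance, lay between 11.58 and 12.12 (median 11.97) in ethanol-treated mice and between 11.79 and 11.93 (median 11.87) in controls. Controls lay close together, with an SD of 0.04 against 0.13 in ethanol-treated mice, and 17 of 20 ethanol-treated mice were above the control median. The difference was 0.09 (SE 0.04, adjusted p = 0.108, limma). On chip 3, the values were 12.06, 11.96, 11.98 and 12.09 in ethanol-treated mice and 11.88, 11.91, 11.86 and 11.93 in controls. The 2 groups did not overlap there, with a difference of 0.13 (SE 0.06, adjusted p = 0.216, limma), and positions elsewhere differed by -0.01 (SE 0.04), or by 0.0746 under median scaling. With chip and position both as terms the difference was 0.14 (adjusted p = 0.616, limma). As for Adcy1, the ethanol chips differed, with a mean of 12.02 ± 0.08 (SD, n = 8) on chip 1 and 11.87 ± 0.14 (SD, n = 8) on chip 2, and the mean of chip 2 was close to that of chip 4 (11.86 ± 0.04, SD, n = 8).

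Adcy9, a widely expressed cyclase that responds poorly to forskolin, was the only tested cyclase of the set with a lower mean in ethanol-treated mice. It lay between 8.70 and 9.30 (median 9.01) in ethanol-treated mice and between 8.90 and 9.45 (median 9.11) in controls, and 13 of 20 ethanol-treated mice were below the control median. The difference was -0.13 (SE 0.05, adjusted p = 0.0850, limma), with an adjusted p of 0.118 by limma without the array of C66. On chip 3, values of 9.15, 9.11, 9.0 and 9.03 in ethanol-treated mice overlapped with 8.98, 9.23, 9.12 and 9.45 in controls. The difference there had the same size, -0.13 (SE 0.09, adjusted p = 0.374, limma), and odd positions elsewhere were lower than even by -0.12 (SE 0.05, adjusted p = 0.111, limma). With chip and position as terms it was -0.0025. Fndc3b (r = 0.700), 8430419L09Rik (r = 0.662) and Paqr7 (r = 0.657) followed Adcy9 most closely.

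Adcy5, a cyclase inhibited by calcium that is best known from the striatum, was detected on 0 of 32 arrays. Its signal ran from 125 to 193 and was not well above background in either group, and no difference was computed. Drd1a and Rgs9, genes typical of striatal neurons, were detected on all 32 arrays, whereas Adora2a and Gpr6 were detected on 0. Adcy3, known from the cilia of olfactory neurons, was not analysed here.

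**Figure D2:**
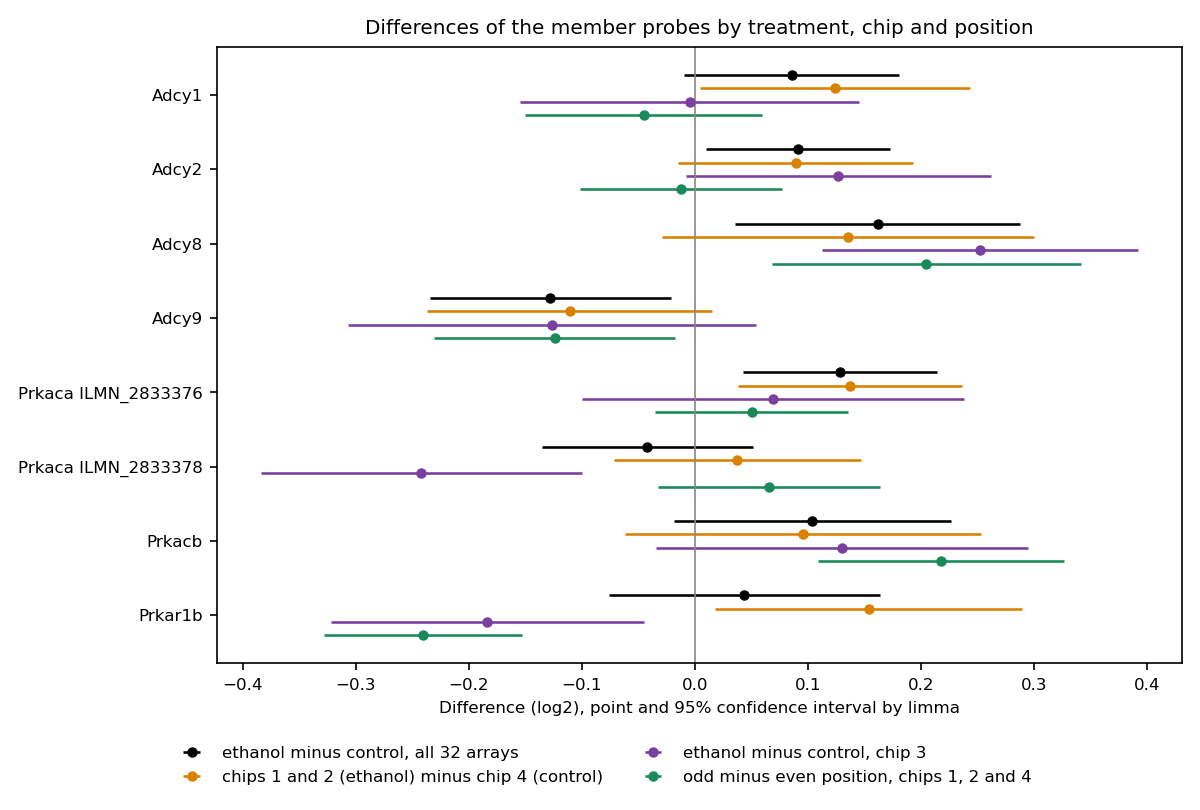
Differences (log2, horizontal axis) of the 8 tested probes with 95% confidence intervals by limma, for the treatments over all arrays, between chips, within chip 3, and for odd minus even positions. The intervals of Prkar1b lie above 0 between chips and below 0 within chip 3 and for position.

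Prkaca encodes the main catalytic subunit of PKA and was read by 2 probes whose starts lie 97 bases apart in the same transcript. Probe ILMN_2833376 lay between 11.42 and 11.83 (median 11.58) in ethanol-treated mice and between 11.30 and 11.70 (median 11.45) in controls. All but 1 of 20 ethanol-treated mice were above the control median, and the difference of 0.13 (SE 0.04), or 1.09-fold, had the lowest adjusted p of the set, 0.0306 by limma. With chip as a random block its adjusted p was 0.180 by limma, and with chip and position as terms the difference was 0.02 (adjusted p = 0.968, limma). Probe ILMN_2833378 lay between 10.30 and 10.64 (median 10.43) in ethanol-treated mice and between 10.22 and 10.68 (median 10.50) in controls, a difference of -0.04 (SE 0.05, adjusted p = 0.565, limma). The probes of this gene therefore had opposite signs over all arrays, although under median scaling the latter turned to 0.0391. With chip and position as terms ILMN_2833378 differed by -0.31 (adjusted p = 0.220, limma).

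On chip 3, ILMN_2833376 was 11.54, 11.58, 11.46 and 11.51 in ethanol-treated mice and 11.70, 11.39, 11.41 and 11.30 in controls. The difference of 0.07 (SE 0.08, adjusted p = 0.633, limma) was within the spread of the mice, and control mouse C52 was the highest of the 8. On the same arrays ILMN_2833378 was 10.35, 10.38, 10.30 and 10.42 in ethanol-treated mice and 10.68, 10.66, 10.56 and 10.51 in controls. These groups did not overlap, and the difference was -0.24 (SE 0.07, adjusted p = 0.0313, limma). Between chips 1 and 2 and chip 4, ILMN_2833376 differed by 0.14 (SE 0.05, adjusted p = 0.0386, limma) and ILMN_2833378 by 0.04 (SE 0.05, adjusted p = 0.656, limma). Neither probe passed an FDR of 10% by position, with odd minus even differences of 0.05 (SE 0.04) and 0.07 (SE 0.05).

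The difference between the probes, ILMN_2833376 minus ILMN_2833378, was taken within each array, so that a shift shared by both cancels. Ethanol-treated mice had a mean of 1.16 ± 0.11 (SD, n = 20), against 0.991 ± 0.17 (SD, n = 12) for controls, a difference of 0.17 (two-sided permutation test, p = 0.00143, adjusted over 5 sets of arrays 0.00715). On chip 3 it ran from 1.09 to 1.20 in ethanol-treated mice and from 0.730 to 1.02 in controls. The groups did not overlap, and the difference was 0.31 (two-sided exact permutation test, p = 0.0286, the smallest that 4 against 4 arrays can give, adjusted 0.0477). On chips 1, 2 and 4 it was 0.10 (two-sided exact permutation test, p = 0.0976, adjusted 0.102), at odd positions 0.21 (two-sided exact permutation test, p = 0.0159, adjusted 0.0398) and at even positions 0.13 (two-sided exact permutation test, p = 0.102, adjusted 0.102). This comparison was chosen after the opposite signs of the probes were seen, it takes no account of chip, and it passed 0.05 neither on chips 1, 2 and 4 nor at even positions. Over the 32 arrays, centred within chip and treatment, the probes correlated with each other at r = 0.272. Genes that followed ILMN_2833376 most closely were 4930455F23Rik (r = 0.747), Psmf1 (r = 0.705) and Mrpl2 (r = 0.628).

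**Figure D3:**
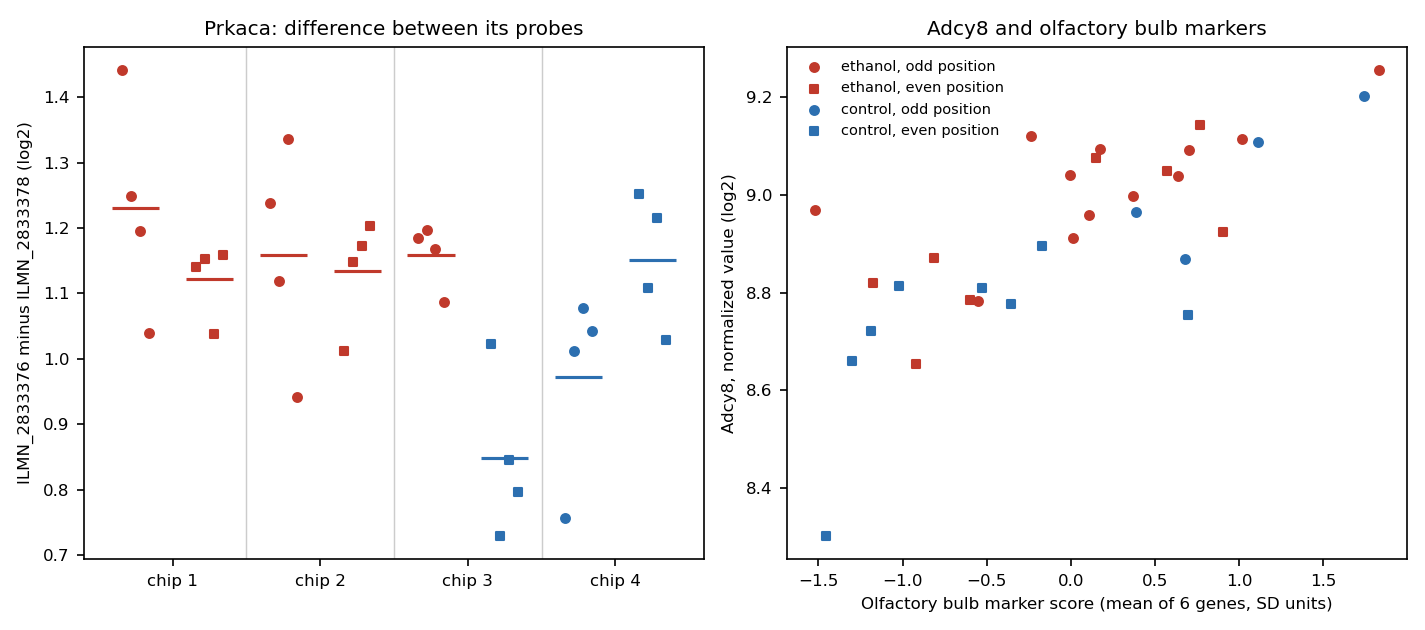
Left, the difference between the Prkaca probes on each array (log2, vertical axis) by chip, with bars for the mean of 4 arrays. Right, Adcy8 (log2, vertical axis) against the olfactory bulb marker score (SD units, horizontal axis), with ethanol-treated mice in red, controls in blue, odd positions as circles and even positions as squares. The control arrays of chip 3 lie from 0.730 to 1.02 on the left, and Adcy8 increases with the score on the right.

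Prkacb encodes the other major catalytic subunit of PKA in brain. It lay between 13.70 and 14.34 (median 13.97) in ethanol-treated mice and between 13.67 and 14.29 (median 13.87) in controls. The groups covered nearly the same range, with a difference of 0.10 (SE 0.06, adjusted p = 0.235, limma). On chip 3, it was 14.23, 13.98, 14.02 and 13.82 in ethanol-treated mice and 13.91, 13.89, 13.87 and 13.87 in controls, so the controls lay inside the range of the treated mice, and the difference was 0.13 (SE 0.08, adjusted p = 0.305, limma). Prkacb was called by position, although not under normexp (adjusted p = 0.0192, limma), with no detection filter (0.0150) or under median scaling (0.112). Over chips 1, 2 and 4, odd positions were higher than even by 0.22 (SE 0.05, adjusted p = 0.00972, limma), and on chip 4 the 4 even positions ran from 13.67 to 13.74 and the 4 odd positions from 13.81 to 14.29 with no overlap. With position and chip as terms the treatment difference turned to -0.09 (adjusted p = 0.848, limma).

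Prkar1b encodes a regulatory subunit of PKA that is mostly found in neurons. It lay between 11.30 and 11.94 (median 11.64) in ethanol-treated mice and between 11.29 and 11.84 (median 11.59) in controls, a difference of 0.04 (SE 0.06, adjusted p = 0.653, limma). On chip 3, its values were 11.53, 11.64, 11.62 and 11.64 in ethanol-treated mice and 11.70, 11.84, 11.83 and 11.79 in controls. All ethanol-treated mice were below all controls there, with a difference of -0.18 (SE 0.07, adjusted p = 0.0841, limma). Between chips 1 and 2 and chip 4 the sign was the other one, 0.15 (SE 0.07, adjusted p = 0.0901, limma). The difference on chip 3 minus that between chips was -0.34 (SE 0.11, adjusted p = 0.0534, limma).

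Prkar1b had the lowest adjusted p by position in the set, but under median scaling it was -0.16 (adjusted p = 0.344, limma), smaller than Prkacb at 0.29. Odd positions were lower than even by -0.24 (SE 0.04, adjusted p = 0.00133, limma) over chips 1, 2 and 4, and 11 of 12 odd arrays were below the median of the even arrays. On chip 2, odd positions ran from 11.30 to 11.50 and even positions from 11.65 to 11.85, all from ethanol-treated mice. On chip 4, all from controls, the odd positions had a mean of 11.38 ± 0.09 (SD, n = 4) and the even ones 11.57 ± 0.07 (SD, n = 4). The chip 3 difference was -0.18 and this position difference -0.24, and treatment and position cannot be told apart on chip 3. With position as a covariate over all arrays, the treatment difference was 0.11 (adjusted p = 0.0732, limma), and with chip as a term too it was 0.06 (adjusted p = 0.871, limma).

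Prkar2b, the regulatory subunit that anchoring proteins hold at membranes in many neurons, was detected on 1 of 32 arrays, with signals from 145 to 206. It was not well above background in either group and was not tested.

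The counts of the set in the other comparisons can be read against those of all tested probes. On chip 3, 0 of 8 probes were called, where 3.27% of all tested probes were, and 3 of 8 passed an FDR of 10% (Adcy8, Prkaca by ILMN_2833378, and Prkar1b), against 16.3%. At an unadjusted p below 0.05 the same 3 of 8 passed, against 26.8%. For 4 of 8 probes (Adcy2, Adcy8, ILMN_2833378 and Prkar1b) the groups did not overlap on chip 3, against 15.2% of all tested probes. Between chips, 0 of 8 were called (11.7% of all) and 2 of 8 passed an FDR of 10% (32% of all), with 3 of 8 at an unadjusted p below 0.05 (36.2% of all). By position, 2 of 8 were called (3.24% of all), Prkacb and Prkar1b, in opposite directions, and Adcy8 also passed an FDR of 10% (20.2% of all), with 4 of 8 at an unadjusted p below 0.05 (28.5% of all). Under median scaling 0 probes of the whole array were called by position. For the difference between chip 3 and the other chips, 0 of 8 were called (3.16% of all) and 2 of 8 passed an FDR of 10% (16% of all), with 2 of 8 at an unadjusted p below 0.05 (25.7% of all). With 8 probes, 1 probe is a large share of the set.

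The rest of the cAMP route was read from lists of 77 other genes, 49 of them tested, each by its brightest probe. Of these, 2 rose and 9 fell at an FDR below 1%, while 241 rose and 382 fell of 7926 genes tested in all. These counts became 1 and 1 under median scaling, 1 and 1 with chip as a random block, and 0 and 0 with chip as a fixed block. Under median scaling the calls that held were Akap8l and Vgf, and the same 2 held with chip as a random block. Their median difference was -0.01, and that of all genes -0.0074. Among the other cyclases, Adcy6, which calcium inhibits, fell by 0.21 on the log2 scale (SE 0.05, adjusted p = 0.00278, limma), a call lost under median scaling and with chip as a fixed or random block, and by position it differed by -0.17 (adjusted p = 0.0166, limma). Adcy4 and Adcy7 did not pass. Neither of the 2 tested PKA subunits outside the set passed an FDR of 1%, with 0.09 for Prkar1a, a regulatory subunit found in most tissues, and 0.13 for Prkx, a related kinase. Another Prkx probe differed by 0.17 (adjusted p = 0.0412, limma). By position the Prkx probes differed by 0.17 (adjusted p = 0.0400, limma) and 0.24 (adjusted p = 0.00750, limma), and on chip 3 by 0.27 (adjusted p = 0.0223, limma) and 0.12 (adjusted p = 0.360, limma). The PKA inhibitor genes Pkia (0.03) and Pkig (-0.11) did not pass either.

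Upstream, both tested G protein genes were called over all arrays, and neither was under median scaling or with chip as a fixed or random block. Gnas, which encodes the alpha subunit that stimulates cyclases, rose by 0.31 (SE 0.08, adjusted p = 0.00527, limma), and by 0.45 on another probe. Without the array of C66 its adjusted p was 0.0131 by limma, and with no detection filter 0.0124. Its difference was -0.14 on chip 3 (adjusted p = 0.275, limma) and 0.51 between chips. That of the other probe was 0.08 on chip 3 (adjusted p = 0.723, limma) and 0.60 between chips. On the chip that held both treatments the probes thus had opposite signs, and neither passed an FDR of 10%. Gnai2, an inhibitory alpha subunit, fell by 0.23 on the log2 scale (SE 0.06, adjusted p = 0.00371, limma), with -0.29 on chip 3 and -0.23 between chips. Of 5 phosphodiesterases tested, which break down cAMP, none was called, although 1 was with array weights. Pde1a differed by 0.33, 0.28 and 0.27 on its 3 probes (adjusted p = 0.0165, 0.0336 and 0.0712, limma). By position its brightest probe differed by 0.32 (adjusted p = 0.0157, limma), and with chip and position as terms by -0.15 between treatments (adjusted p = 0.841, limma). Of 9 tested genes listed by name as PKA anchoring proteins, Akap8l, which encodes a nuclear protein, rose by 0.27 (SE 0.05, adjusted p = 0.000493, limma), with 0.35 on chip 3. By position on the other chips Akap8l also differed, by 0.18 (adjusted p = 0.0134, limma). Other cAMP effectors and PKA substrates, 4 tested genes each, gave 0 calls over all arrays. The effector gene Rapgef4 differed by -0.40 on chip 3 (adjusted p = 0.00391, limma) and by 0.18 between chips (adjusted p = 0.0333, limma). With chip and position as terms its difference was -0.30 (adjusted p = 0.315, limma).

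Downstream, Crtc1, a coactivator of CREB, fell by 0.22 on the log2 scale (SE 0.06, adjusted p = 0.00701, limma) among 5 tested CREB factors, a call lost without the array of C66 (adjusted p = 0.0162, limma), under median scaling and with chip as a block. Of 13 tested genes known as targets of CREB, 6 fell and 0 rose, while 7.86% of all tested genes were called in either direction. The list was chosen with earlier results of these data known. Only 1, Vgf, still passed under median scaling, and 0 with chip as a fixed block, with or without position as a term. Vgf, a secreted neuropeptide precursor, fell by 0.56 on the log2 scale (SE 0.08), and Arc, a synaptic immediate early gene, fell by 0.50 (SE 0.11). The clock gene Per1 fell by 0.27, and the early response genes Junb, Gadd45b and Fosb fell by 0.23, 0.21 and 0.19. On chip 3 the same differences were -0.42 for Vgf, -0.25 for Arc and -0.42 for Per1. They were -0.30 for Junb, -0.04 for Gadd45b and -0.06 for Fosb. Of the tested targets not called over all arrays, Bdnf rose by 0.43 on chip 3 (adjusted p = 0.00710, limma). Fos, Sst and Egr1 differed there by 0.14, 0.11 and 0.10, and Npas4, Nr4a2 and Dusp1 by -0.09, -0.08 and -0.07. With chip and position both as terms no gene named from these lists passed an FDR of 10%. Of 5 tested cortical neuron markers, Slc17a7, Tbr1 and Fezf2 fell by 0.25, 0.35 and 0.18 over all arrays, while Cux2 (-0.08) and Rorb (0.06) did not pass. In the other 8 marker lists, the astrocyte gene Aqp4 rose by 0.56, 1 of 10 tested astrocyte markers, and the endothelial gene Slc2a1 fell by 0.24 on the log2 scale, 1 of 5 tested, with 0 calls in the rest. Their part in these differences was not tested.

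**Figure D4:**
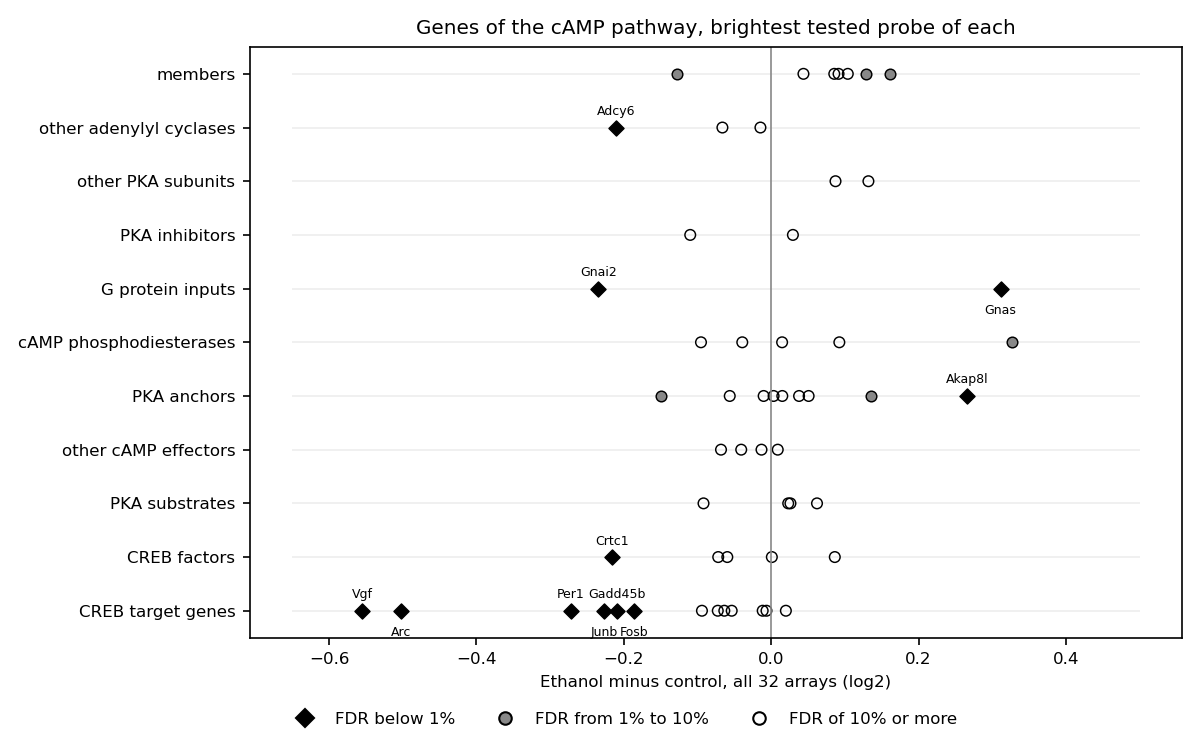
Ethanol minus control (log2, horizontal axis) over all 32 arrays for each tested gene of the cAMP lists by its brightest probe. Diamonds mark genes below an FDR of 1%, grey circles those from 1% to 10% and open circles the rest; no gene of the set is a diamond, and 6 of 13 CREB target genes are, all below 0.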

How the data were processed

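FCtx RNA of 32 mice was profiled on Illumina MouseRef-8 arrays. The authors deposited one table of bead summaries without normalization, and 0 of its value columns lacked a sample. Its deposited intensities are linear mean signals of each probe's beads. A detection p-value per probe, the bead count and the spread of the bead mean as a standard error (other values) were deposited beside them. The software that wrote it and its background step are not given in the sources used here. Its probe coordinates name no build and were not used. The number of arrays limits the precision.

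Signals were variance-stabilized from bead errors (the transform the study's methods name, rewritten here) and quantile-normalized. Of 25697 probes, the 10187 detected (p below 0.01) on 24 or more arrays were tested by limma 3.58.1 in R 4.3.3 with no covariate, adjusted by Benjamini-Hochberg. Comparisons were treatment over all arrays, within chip 3 and between chips, odd against even position with chip as a term, and the difference between chip 3 and the other chips. Permutation tests and figures used Python 3.11.15 with scipy 1.17.1 and 100000 resamples, or all regroupings where a group had under 10 arrays. The code was tested on simulated data. Labels give separate mice. Groups share no mouse number.

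The members and gene lists were chosen with earlier results of these data known. Named were all members with all probes, pathway genes called at an FDR below 1%, and, for the 3 members with the lowest p, the 3 genes most correlated. Alternatives were log2 signals, normexp with an offset of 16, median scaling, other detection filters, chip and position as terms, array weights, leaving out arrays and the lowest-p probe of a gene. Marker correlations, the Prkaca probe difference, single positions and the FDR of 10% as a count were added after seeing the data.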

Additional observations from a re-analysis of the deposited data

Results flagged for a closer look

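Prkaca probe ILMN_2833378 had 1 array apart from its group. Ethanol-treated mouse A34 on chip 2 had a value of 10.63, while the other 7 mice of that chip lay between 10.30 and 10.46. It was the only such array in 40 groups of 4 or 8 arrays screened, a screen in which chance alone marks about 1 group in 20. For the same probe the treatment difference on chip 3 was lower than that between chips 1 and 2 and chip 4 by -0.28 on the log2 scale (adjusted p = 0.0509, limma), with -0.24 on chip 3 and 0.04 between chips. Prkar1b likewise differed by -0.34 (adjusted p = 0.0534, limma), with -0.18 on chip 3 and 0.15 between chips. With position as a covariate, -0.34 for Prkar1b became -0.10 (adjusted p = 0.610, limma). Both passed an FDR of 10% and neither passed 1%.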

How the results depend on the processing

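No paired analysis was possible because ethanol-treated mice and controls share 0 mouse numbers. Of the members' values under alternatives, 320 kept their direction and side of an FDR of 1%, 4 lost the call (Prkacb and Prkar1b by position) and 20 changed sign. The count of 0 called over all arrays became 3 at an FDR of 10%, and 2 called by position became 1 under normexp, 1 with no detection filter and 0 under median scaling. The 6 CREB target genes that fell became 1 under median scaling, chip as a random block or odd positions alone, and 0 with chip as a fixed block, with chip and position, or at even positions alone. Signs turned under median scaling for ILMN_2833378 over all arrays (0.0391), Adcy9 between chips (0.0123), Adcy1 (0.0292) and Adcy2 (0.0746) by position, and Adcy2 (-0.12), Adcy8 (-0.0166) and Prkacb (-0.0643) for the difference between chip 3 and the other chips. They turned with chip as a fixed block for Adcy1 (-0.0047) and Prkar1b (-0.18), as a random block for Prkar1b (-0.0059), with chip and position for Prkacb (-0.0874), at odd positions for Adcy8 (-0.0052) and Prkacb (-0.0221), and with position as a covariate, for the difference between chip 3 and the others, for Adcy8 (-0.0876), Adcy9 (0.11) and Prkacb (-0.18). Leaving out single arrays of chip 3 gave Adcy1 values from -0.0505 to 0.0240 and kept the count there at 0. The cause was not tested. Median scaling moved the median of all probes by 0.05 over all arrays and -0.12 for the difference between chip 3 and the others, and the share of higher among called probes from 44.6% to 89.1%. Over all arrays, 834 called probes became 174 under median scaling, 17 and 82 with chip as a fixed and random block, 2 with chip and position, and 458 and 6 at odd and even positions. Without C66, 1 of 8 member probes passed an FDR of 10%, and 2141 of 10187 tested probes did.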
